A study of Drosophila melanogaster with 8 samples.

Results

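Larval serum proteins, yolk proteins and fat body proteins are products of the fat body, the insect counterpart of liver and adipose tissue, and their transcripts were examined in libraries made from pupal terminalia. The 10 genes are Lsp1alpha, Lsp1beta, Lsp1gamma, Lsp2, Fbp1, Fbp2, apolpp, Yp1, Yp2 and Yp3. They were picked by name through their FlyBase symbols, and all 10 were found among the 16845 genes of the count table. Each library came from the terminalia of a single male pupa of genotype yw;+;+, with 4 libraries at 28 hr after puparium formation (APF) and 4 libraries at 24 hr APF, and the labels name no transgene or treatment for either group. The terminalia were flushed out of the posterior tip of the pupa, so a library reports the tissue that was recovered and not sorted cells. Total counts ranged from 28463333 to 33831406 at 28 hr APF and from 24534188 to 35795240 at 24 hr APF. The tissue label was checked on 6 terminalia markers, all of which were detected. Abd-B, the Hox gene of the posterior abdomen, had 88.1 ± 1.18 rpkm at 28 hr APF and 79.8 ± 4.03 rpkm at 24 hr APF (SD, n = 4 each), where rpkm is the count per 1000000 counted reads of the library, divided by the exon length in kilobases.

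Hexamerins are storage proteins that the fat body of the late larva secretes into the hemolymph and takes up again before metamorphosis, when they serve as a store of amino acids for the adult. Lsp1alpha, Lsp1beta and Lsp1gamma encode the subunits of larval serum protein 1, and Lsp2 encodes larval serum protein 2. Fbp1 encodes the receptor through which hexamerins return to the fat body. Fbp2 encodes a fat body protein related to alcohol dehydrogenase. apolpp encodes the precursor of the apolipoproteins of lipophorin, the particle that carries lipid through the hemolymph. Yp1, Yp2 and Yp3 encode yolk proteins, which are made in the fat body and follicle cells of adult females and are repressed in males by the male form of the sex determination factor Doublesex. During metamorphosis the larval fat body breaks up into single cells that float in the body cavity.

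Among the 10 genes, the level per exon length was highest for Lsp2 and Lsp1gamma. Lsp2 had 12.6 ± 5.15 rpkm at 28 hr APF and 12.4 ± 15.7 rpkm at 24 hr APF, and Lsp1gamma had 3.94 ± 0.846 rpkm at 28 hr APF and 13.3 ± 3.62 rpkm at 24 hr APF (SD, n = 4 each). The means of Fbp1, Fbp2, apolpp and Yp3 lay between 0.477 and 1.25 rpkm, with SDs that overlap, so these genes have no clear order. Lsp1alpha, Lsp1beta, Yp1 and Yp2 had means between 0.003 and 0.173 rpkm and were too sparse for the test. Levels of single libraries are given in CPM, the count per 1000000 counted reads of the library, which compare libraries for 1 gene and not genes with each other.

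**Figure D1:**
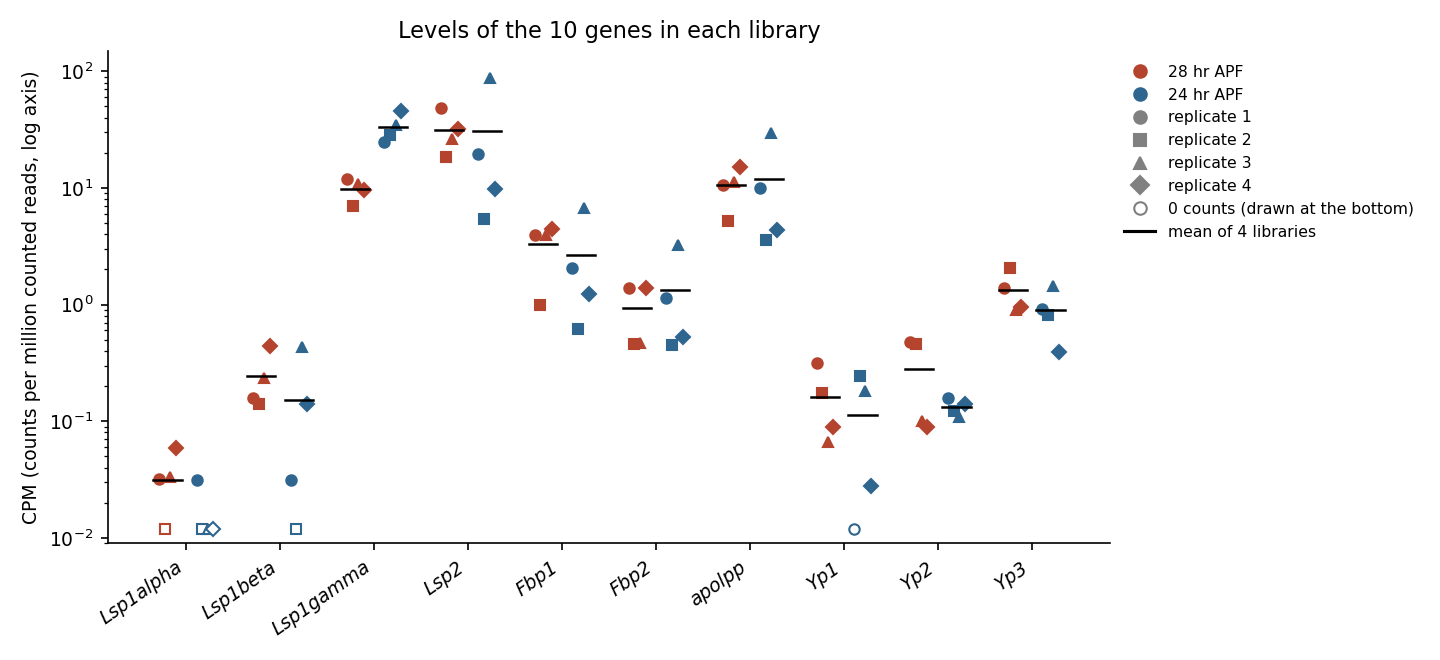
Level of each of the 10 genes in each library in CPM (log axis), with 28 hr APF in red left of 24 hr APF in blue, 1 symbol for each replicate number and a black bar for the mean of 4 libraries. Only for Lsp1gamma do the 4 libraries at 28 hr APF, between 6.99 and 11.9 CPM, all lie below the 4 at 24 hr APF, between 24.8 and 45.4 CPM, and open symbols mark libraries with 0 counts.

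Of the 10 genes, 6 had enough reads to be tested between the time points (quasi-likelihood test of edgeR, Benjamini-Hochberg adjustment over 11232 genes, threshold 0.05), and 1 of the 6, Lsp1gamma, passed the threshold. In the same fit 32.9% of all tested genes passed it, 15.6% higher and 17.3% lower at 28 hr APF, so a call as such does not set the gene apart. The 4 genes that were not tested are Lsp1alpha, Lsp1beta, Yp1 and Yp2. The median log2 fold change (28 hr over 24 hr APF) of the 6 tested genes was -0.03, against 0.00 over all tested genes. All libraries came from whole tissue, in which fewer cells of a type and less RNA per cell cannot be told apart.

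Lsp1gamma, a subunit gene of larval serum protein 1, fell between the time points. Its level was 11.9, 6.99, 10.8 and 9.67 CPM in the 4 libraries at 28 hr APF, against 24.8, 28.3, 34.3 and 45.4 CPM in the 4 libraries at 24 hr APF. The time points did not overlap, a separation that 34.4% of all tested genes showed in either direction and 21.2% in this direction. The log2 fold change was -1.72 (standard error 0.21, 95% interval -2.18 to -1.27, adjusted p = 0.000137 from the edgeR test), the 76th most negative of the 11232 tested genes. Leaving out each library in turn gave log2 fold changes between -1.84 and -1.52, with adjusted p between 0.000156 and 0.000834. In the BDGP6 annotation, Lsp1gamma (FBgn0002564) spans 66430 to 68995 of arm 3L, and none of its 2501 exon bases is shared with another annotated gene. The nearest downstream gene of the table, lncRNA:CR44510, begins after a gap of 142 bases and had 6, 76, 5 and 1 counts at 28 hr APF, against 104, 75, 1 and 116 counts at 24 hr APF. Most libraries at 24 hr APF had more counts of this RNA than most at 28 hr APF, the direction seen for Lsp1gamma, but the time points overlapped. Replicate 2 at 28 hr APF, highest there for the RNA, was lowest for Lsp1gamma. A relation of the RNA to Lsp1gamma was not tested.

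Lsp2, the gene of the other larval serum protein, did not pass the threshold and differed far more between pupae of the same age. It had 48.6, 18.5, 26.1 and 31.9 CPM at 28 hr APF, against 19.6, 5.46, 88.2 and 9.69 CPM at 24 hr APF. Replicate 3 at 24 hr APF was the highest of all libraries and replicate 2 at 24 hr APF the lowest, a span of 16.2-fold within that time point, against 2.63-fold at 28 hr APF. The log2 fold change was 0.07 (standard error 0.69, 95% interval -1.46 to 1.60, adjusted p = 0.953 from the edgeR test). Without replicate 3 at 24 hr APF it was 1.44 with an adjusted p of 0.0259, and without other single libraries it lay between -0.27 and 0.25, so a single pupa decides the call. Lsp2 (FBgn0002565) spans 12129393 to 12131869 of the same arm. On the opposite strand, asRNA:CR11538, whose ID is not in the table used here, covers 84.6% of its exon bases. Whether strand was used in counting is not stated, so reads of the pair cannot be told apart.

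Lsp1alpha and Lsp1beta, the other subunit genes of larval serum protein 1, were at or near the limit of detection. Lsp1alpha had 1, 0, 1 and 2 counts at 28 hr APF, against 1, 0, 0 and 0 counts at 24 hr APF, and a count of 0 allows up to 3 counts, or 0.034 to 0.040 rpkm in a library at 28 hr APF and 0.032 to 0.047 rpkm in a library at 24 hr APF. Lsp1beta had 5, 4, 7 and 15 counts at 28 hr APF, against 1, 0, 12 and 5 counts at 24 hr APF. The time points overlapped for both genes. Summed over 4 libraries, Lsp1alpha had 4 counts at 28 hr APF (95% Poisson interval 1.09 to 10.2) and 1 count at 24 hr APF (0.025 to 5.572), whereas Lsp1gamma had 1225 counts (1157 to 1296) and 4057 counts (3933 to 4184). These intervals cover counting error only. The subunit genes are paralogs, and how reads that align to several of them were counted is not stated.

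Fbp1, the hexamerin receptor gene, had 3.95, 0.984, 3.97 and 4.43 CPM at 28 hr APF, against 2.08, 0.611, 6.75 and 1.23 CPM at 24 hr APF. Replicate 2 was the lowest library at both ages and replicate 3 at 24 hr APF the highest of all, and the time points overlapped. The log2 fold change was 0.37 (standard error 0.64, 95% interval -1.05 to 1.79, adjusted p = 0.703 from the edgeR test). With single libraries left out in turn, it lay between 0.05 and 1.36, the highest without replicate 3 at 24 hr APF, and never passed the threshold. Fbp2 had 1.40, 0.457, 0.467 and 1.39 CPM at 28 hr APF, against 1.13, 0.448, 3.25 and 0.531 CPM at 24 hr APF, with replicate 2 lowest and replicate 3 at 24 hr APF highest. Its log2 fold change was -0.48 (standard error 0.63, 95% interval -1.87 to 0.91, adjusted p = 0.607 from the edgeR test), and it was 0.41 without replicate 3 at 24 hr APF. Fbp1 (FBgn0000639, 14094589 to 14098053 of arm 3L) shares no exon base with another gene. Fbp2 (FBgn0000640, 9426784 to 9427917 of arm 2L) shares 4.47% of its exon bases with CG42847 on the same strand.

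apolpp, the lipophorin gene, had 10.6, 5.23, 11.2 and 15.1 CPM at 28 hr APF, against 10.04, 3.59, 29.8 and 4.33 CPM at 24 hr APF. The extremes were again replicate 3 and replicate 2 at 24 hr APF, and the time points overlapped. The log2 fold change was -0.13 (standard error 0.58, 95% interval -1.42 to 1.16, adjusted p = 0.892 from the edgeR test), and lay between -0.43 and 0.83 with single libraries left out in turn, the highest without replicate 3 at 24 hr APF. The gene (FBgn0087002) spans 1060969 to 1077273 of chromosome 4, and Zyx, on the opposite strand, shares 0.816% of its 11766 exon bases.

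**Figure D2:**
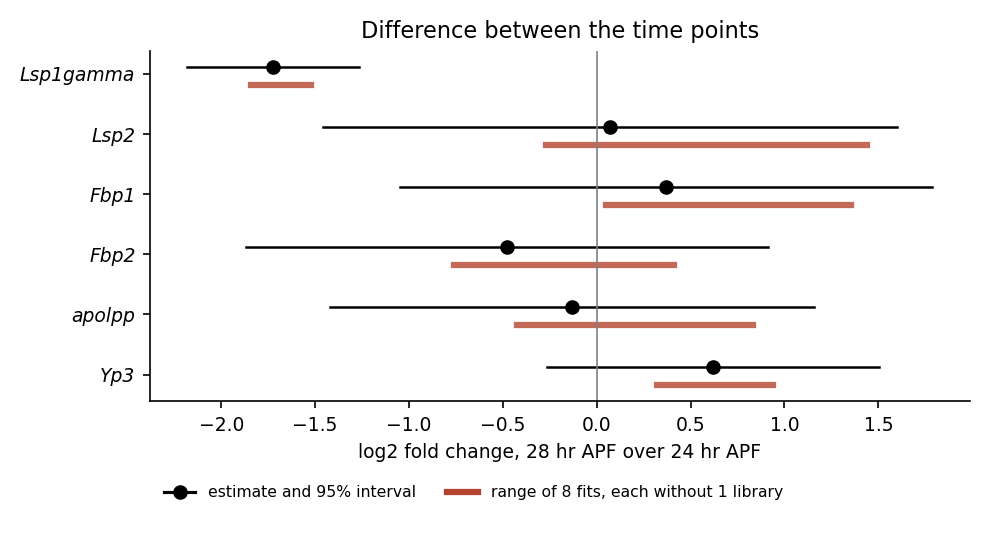
Log2 fold change of the 6 tested genes, 28 hr APF over 24 hr APF. Black points and lines are the estimates with their 95% intervals and red bars the range over 8 fits with a single library left out. The interval of Lsp1gamma, from -2.18 to -1.27, lies below 0, and those of the other 5 genes span 0.

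The yolk protein genes were low in these male libraries, and none passed the threshold. Yp3 had 1.40, 2.07, 0.900 and 0.946 CPM at 28 hr APF, against 0.913, 0.815, 1.44 and 0.391 CPM at 24 hr APF, and its log2 fold change was 0.62 (standard error 0.40, 95% interval -0.27 to 1.5, adjusted p = 0.269 from the edgeR test). It was 0.32 without replicate 2 at 28 hr APF and 0.94 without replicate 3 at 24 hr APF, the extremes with single libraries left out, and did not pass the threshold in either. Replicate 2, the lowest library for Lsp2 at 28 hr APF, was the highest there for Yp3. Yp1 had 10, 5, 2 and 3 counts at 28 hr APF, against 0, 6, 5 and 1 counts at 24 hr APF. Yp2 had 15, 13, 3 and 3 counts at 28 hr APF, against 5, 3, 3 and 5 counts at 24 hr APF. The time points overlapped for all 3 genes. The summed level of the 3 genes was 1.77 ± 0.810 CPM at 28 hr APF and 1.14 ± 0.482 CPM at 24 hr APF (SD, n = 4 each, two-sided exact permutation p = 0.286 over 70 splits). Yp1 and Yp2 lie 1174 bases apart on chromosome X and are transcribed away from each other, and 54.3% of the exon bases of Yp1 are shared with asRNA:CR45601 on the opposite strand. Of the 8 eggshell genes examined as markers of egg chambers, 2 were at 0 in all libraries, and the sum of all 8 was between 0.467 and 1.09 CPM at 28 hr APF and between 0.378 and 1.16 CPM at 24 hr APF. The part of such cells in the yolk protein reads was not tested.

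Lsp2, Fbp1, Fbp2 and apolpp deviated together from pupa to pupa. At 24 hr APF, each of the 4 genes had the same order of libraries, with replicate 3 highest, then replicate 1, replicate 4 and replicate 2. At 28 hr APF replicate 2 was lowest for all 4, while the highest was replicate 1 for Lsp2 and Fbp2 and replicate 4 for Fbp1 and apolpp. For Fbp2 the order at 28 hr APF rests on near ties, with 44, 13, 14 and 47 counts in replicates 1 to 4. After the mean of each time point was subtracted from log2 CPM, the 6 pairs of these genes had Pearson's r between 0.857 and 0.959 over the 8 libraries, with exact permutation p between 0.013 and 0.0434, adjusted over all 15 pairs of tested genes (libraries permuted within time points, two-sided, smallest unadjusted p 0.00174). Spearman's rho of the ranks within time points was 1 for Lsp2 with Fbp2 and for Fbp1 with apolpp (adjusted exact permutation p = 0.026 for both), and 0.70 for the other 4 pairs (adjusted exact permutation p = 0.278). The rho of 1 for Lsp2 with Fbp2 depends on the near ties of Fbp2. Leaving out the 2 libraries farthest from the median of 1 gene of each pair gave r between 0.749 and 0.979. The libraries left out thus differed between pairs. For Lsp2 with Fbp1, Fbp2 and apolpp they were replicates 2 and 3 at 24 hr APF, and r was between 0.749 and 0.866. Fbp1 with Fbp2 and with apolpp kept replicate 3 at 24 hr APF, and Fbp2 with apolpp kept replicate 2 at 24 hr APF. The relation was first seen in these libraries and was then measured in them.

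Over both ages, Lsp1gamma and Yp3 had no such relation that passed the test. Lsp1gamma had r between 0.104 and 0.369 with the 4 genes (adjusted exact permutation p between 0.656 and 0.854, rho between 0.10 and 0.40 with adjusted p of at least 0.700). With the 2 libraries farthest from the median of Lsp1gamma left out, r was between 0.249 and 0.426. Whether these r differ from those among the 4 genes was not tested. A relation within 1 age was not tested, since 4 libraries are too few. As a description, r of Lsp1gamma with the 4 genes was between 0.491 and 0.899 at 28 hr APF. At 24 hr APF it was between -0.138 and 0.042. Among the 4 genes r was between 0.609 and 0.962 at 28 hr APF and between 0.979 and 0.9995 at 24 hr APF. At 28 hr APF, Lsp1gamma deviated with the 4 genes in replicate 2, its lowest library (-0.47 on the log2 scale) as it was theirs (-1.50 to -0.67). At 24 hr APF, Lsp1gamma was highest in replicate 4 (0.51), where the 4 genes lay between -0.90 and -0.52. With the log2 summed level of Lsp2, Fbp1, Fbp2 and apolpp as a covariate, a fit added after the values were seen, the log2 fold change of Lsp1gamma was -1.74 (adjusted p = 0.000395 from the edgeR test). Since the r of Lsp1gamma with these genes was low, the covariate could move its estimate little. Nothing is concluded from this fit. Yp3 had r between 0.107 and 0.461 with the 4 genes and -0.63 with Lsp1gamma (adjusted exact permutation p of at least 0.279, rho between -0.40 and 0.30 with adjusted p of at least 0.700). With the 2 libraries farthest from the median of the other gene left out, r was 0.827 for Fbp1 with Yp3. For the other pairs of Yp3 it was then between -0.10 and 0.214. Yp3 went against the 4 genes in replicate 2 at 28 hr APF (0.69), and with them in replicates 3 and 4 at 24 hr APF (0.76 and -0.92).

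**Figure D3:**
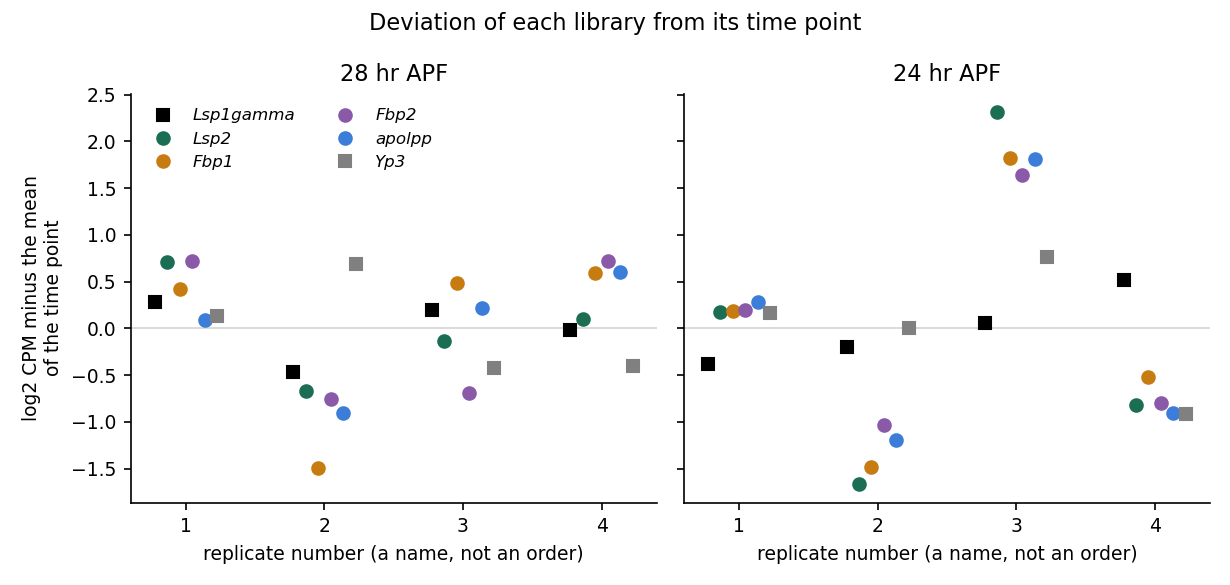
Deviation of log2 CPM from the mean of the time point for the 6 tested genes in the 4 libraries at 28 hr APF (left) and the 4 at 24 hr APF (right). Circles are Lsp2, Fbp1, Fbp2 and apolpp, which lie between 1.63 and 2.31 in replicate 3 and between -1.67 and -1.03 in replicate 2 at 24 hr APF, and squares are Lsp1gamma and Yp3, which lie at 0.06 and 0.76 in that replicate 3.

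The spread between pupae of the same age was large for genes of this level. The SD of log2 CPM within time points was 1.28 for Lsp2, against a median of 0.092 among the 3126 tested genes of similar mean CPM (within 2-fold), where it ranked 5. For apolpp it was 1.07, against a median of 0.141, and it ranked 4 of 2076 genes of similar level. It was 1.22 for Fbp1 (median 0.263) and 1.04 for Fbp2 (median 0.373), where counting error is larger, and these ranked 31 of 1542 and 91 of 1631. Lsp1gamma had 0.362 against a median of 0.105 and ranked 57 of 2818, and Yp3 had 0.617 against a median of 0.377 and ranked 299 of 1619. The spread of the 4 covarying genes was wider at 24 hr APF than at 28 hr APF. For Lsp2 the SD was 0.570 at 28 hr APF and 1.72 at 24 hr APF, and for apolpp 0.643 and 1.37. That difference in spread was not tested.

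**Figure D4:**
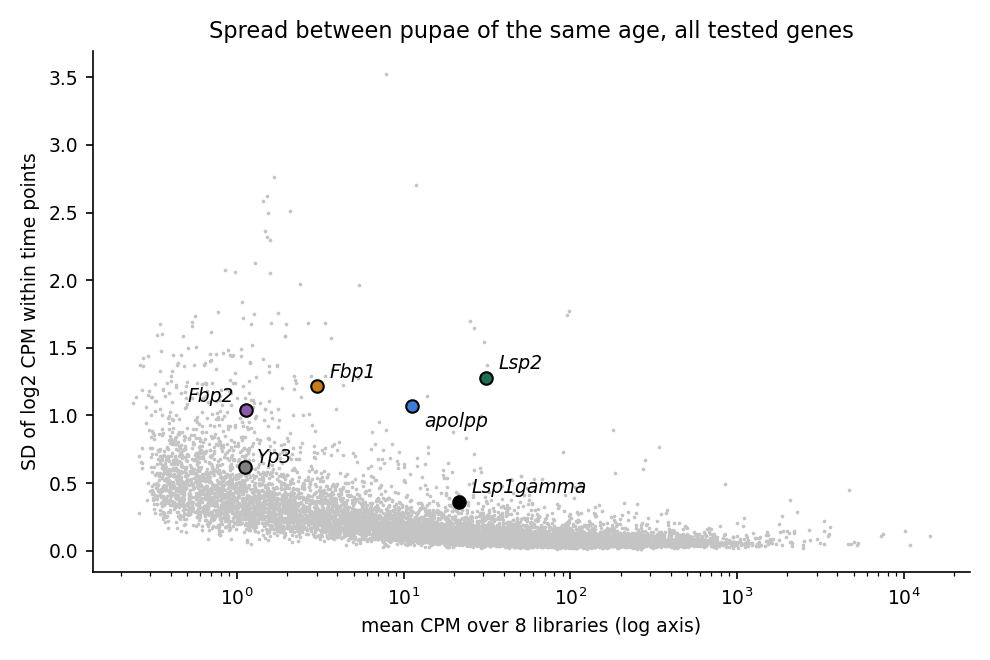
SD of log2 CPM within time points against mean CPM over 8 libraries (log axis), with all 11232 tested genes in grey and the 6 tested genes of the group in color. Lsp2 (1.28) and apolpp (1.07) lie far above the grey band at their level, and Lsp1gamma (0.362) lies nearer to it.

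At 24 hr APF, the make-up of the reads of the 10 genes differed from that at 28 hr APF in all libraries but replicate 3. This is a description and was not tested. Lsp1gamma held 15.14%, 19.98%, 20.05% and 15.08% of these reads in the 4 libraries at 28 hr APF, against 42.2%, 71.5%, 20.9% and 73.4% at 24 hr APF. Lsp2 held 61.6%, 52.8%, 48.5% and 49.7% at 28 hr APF, against 33.3%, 13.8%, 53.6% and 15.7% at 24 hr APF. Replicate 3 at 24 hr APF thus lay inside the range of the libraries at 28 hr APF for the Lsp2 share and just above it for the Lsp1gamma share, although its Lsp1gamma level of 34.3 CPM was inside the range of its own age. The ratio of Lsp1gamma to Lsp2 reads was 0.246, 0.378, 0.413 and 0.303 at 28 hr APF, against 1.27, 5.18, 0.389 and 4.69 at 24 hr APF, where the ratio of replicate 3 was inside the range at 28 hr APF. The summed level of the 10 genes was 57.9 ± 18.4 CPM at 28 hr APF and 81.2 ± 56.4 CPM at 24 hr APF (SD, n = 4 each), a difference of -23.2 CPM within the spread between pupae (two-sided exact permutation p = 0.629). Without replicate 3 at 24 hr APF the difference was 4.54 CPM (two-sided exact permutation p = 0.771). The summed level of the 4 hexamerin genes differed by -22.7 CPM (two-sided exact permutation p = 0.400).

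**Figure D5:**
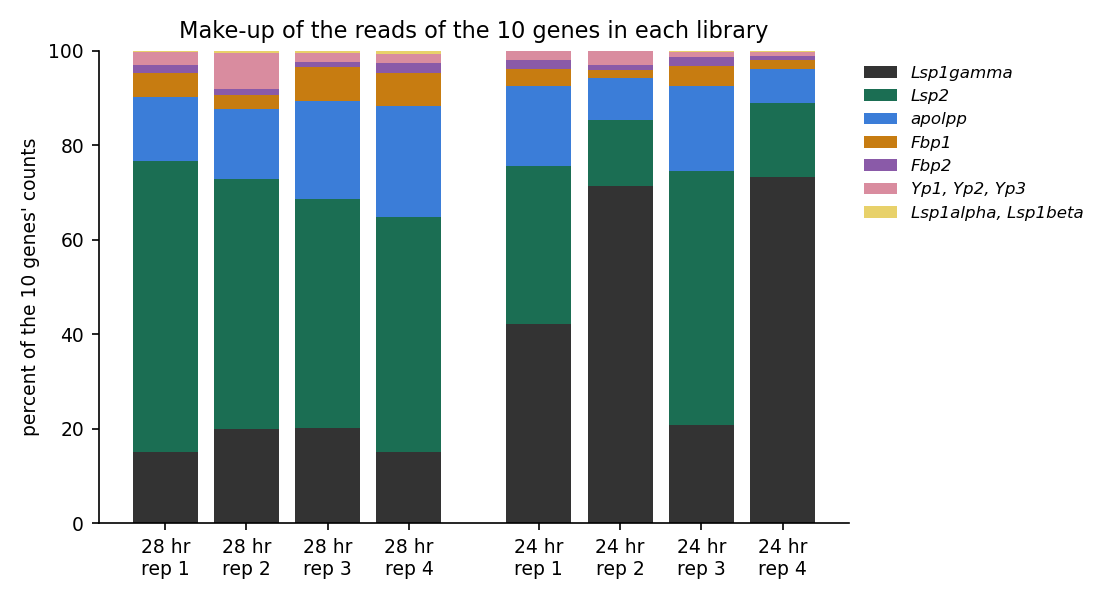
Percent of the summed counts of the 10 genes that each gene or gene group holds, in the 4 libraries at 28 hr APF (left) and the 4 at 24 hr APF (right). Lsp1gamma holds between 15.08% and 20.05% at 28 hr APF and between 20.9% and 73.4% at 24 hr APF.

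Genes around the fat body proteins were followed in lists of related function. Of 8 genes for assembly, transfer and uptake of lipoproteins, 7 were tested, 4 rose and none fell, where 15.6% of all tested genes rose and 17.3% fell. They included Mtp, which loads lipid onto apolipoproteins, at 26.7 ± 1.25 rpkm at 28 hr APF and 24.7 ± 0.888 rpkm at 24 hr APF (SD, n = 4 each), with a log2 fold change of 0.14. The lipophorin receptor genes LpR2 and LpR1 rose by 0.20 and 0.35 on the log2 scale, and mgl, a large endocytic receptor gene, by 0.40. The gene not tested was yl, which encodes the yolk protein receptor of the oocyte. In these edgeR calls, Mtp and LpR1 lay near the threshold (adjusted p = 0.0423 and 0.0484).

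Of 11 genes of lipid storage and mobilization, 4 rose and 1 fell, where 32.9% of all tested genes passed the threshold in either direction. bmm, which encodes the lipase of the lipid droplet, had 13.4 ± 1.15 rpkm at 28 hr APF and 6.86 ± 1.37 rpkm at 24 hr APF (SD, n = 4 each). Its log2 fold change was 1.01 (adjusted p = 0.000148 from the edgeR test). mdy, a triglyceride synthesis gene, rose by 0.24 on the log2 scale, and AkhR, the receptor gene of adipokinetic hormone, by 1.94. AkhR had 0.199 ± 0.033 rpkm at 28 hr APF and 0.051 ± 0.041 rpkm at 24 hr APF. These levels rest on 16, 18, 23 and 21 counts at 28 hr APF, against 0, 3, 7 and 10 counts at 24 hr APF. The lipid droplet gene Lsd-2 and the desaturase gene Desat1 had log2 fold changes of 0.06 and -0.12 and did not pass the threshold. Of 11 other genes for secreted or metabolic proteins known in fat body, 10 were tested, 3 rose and 3 fell, against the same 32.9% of all genes. The most abundant were Obp99a at 770.5 ± 139 rpkm at 28 hr APF and 473 ± 114 rpkm at 24 hr APF, the transferrin gene Tsf1 at 680.5 ± 60.4 and 582 ± 48.1 rpkm, and the glucan recognition gene GNBP3 at 357 ± 12.5 and 261 ± 8.78 rpkm (SD, n = 4 each). All 3 rose, by 0.73, 0.26 and 0.48 on the log2 scale. The takeout gene to fell to 0.091 ± 0.098 rpkm at 28 hr APF, against 0.729 ± 0.225 rpkm at 24 hr APF (SD, n = 4 each). Its log2 fold change was -2.94 (standard error 0.63, adjusted p = 0.00476 from the edgeR test). It had only 5, 0, 8 and 1 counts at 28 hr APF, near the limit of detection, against 26, 23, 17 and 46 counts at 24 hr APF.

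Of 12 genes of autophagy, granule maturation and matrix proteolysis, which act when the larval fat body takes up its stores and breaks up, 11 were tested, 2 rose and none fell, against 15.6% and 17.3% of all tested genes. The risers were the autophagy genes Atg1 and Atg8a, by 0.16 and 0.15 on the log2 scale, and the cathepsin genes Cp1 and CtsB had -0.05 and 0.01. Of 18 genes known to regulate larval serum, Fbp or yolk protein genes, 16 were tested, 4 rose and 4 fell, against 32.9% of all tested genes in either direction. Of the ecdysone pathway genes among them, Eip75B and Blimp-1 rose by 0.95 and 1.40 on the log2 scale, and the receptor gene EcR and the competence factor gene ftz-f1 had log2 fold changes of -0.38 and -2.39. dsx, which encodes Doublesex, rose to 60.3 ± 9.67 rpkm at 28 hr APF, against 48.9 ± 0.995 rpkm at 24 hr APF (SD, n = 4 each), by 0.33 on the log2 scale. The counts do not separate its male and female forms. The median log2 fold changes of the 5 lists lay between -0.08 and 0.20, against 0.00 over all tested genes.

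Some listed genes followed Lsp2 from pupa to pupa and others went the other way, and those named here were chosen after their values were seen. srp, the GATA factor gene of fat body and hemocytes, had 11.4, 9.87, 8.80 and 9.07 CPM at 28 hr APF, against 15.7, 10.6, 29.0 and 8.41 CPM at 24 hr APF. Lsd-1, the gene of a fat body lipid droplet protein, had 10.9 CPM in replicate 3 at 24 hr APF and between 5.73 and 7.80 CPM elsewhere. Obp99b had 6.21 CPM in that library and between 0.367 and 3.0 CPM elsewhere. The r with Lsp2 over the 8 deviations was 0.899, 0.940 and 0.936 for srp, Lsd-1 and Obp99b, as a description of the 82 listed genes tested. High r was not confined to fat body genes. It was 0.864 for the muscle marker Tm2, 0.841 for Timp and 0.710 to 0.739 for the hemocyte markers NimC1, eater and Pxn. The other muscle markers lay between -0.12 (Mhc) and 0.496 (bt), and the hemocyte markers Hml and crq had 0.601 and 0.321. The r was negative for other listed fat body genes, among them the abundant GNBP3 (-0.63), Obp99a (-0.54) and Tsf1 (-0.28), the lipase gene Hsl (-0.64) and the lipophorin receptor gene LpR1 (-0.40). The most negative listed gene was the terminalia marker Poxn (-0.895). Replicate 3 at 24 hr APF also had the highest sum of the 9 hemocyte markers (151 CPM, with srp among them), against 106.5 to 114 CPM at 28 hr APF and 108 to 119.5 CPM in the other libraries at 24 hr APF. Most of that sum was crq (96.6 CPM) and srp (29.0 CPM), followed by Pxn (16.7 CPM) and NimC1 (6.61 CPM). Hml and eater had 1.44 and 0.614 CPM there. Of these 9 markers 4 had a mean of at least 1 CPM. The sum of the 8 muscle markers was between 757 and 834 CPM at 28 hr APF and between 649.5 and 863 CPM at 24 hr APF, again highest in replicate 3, and 6 of these markers rose and 2 fell (15.6% and 17.3% of all tested genes). The sum of the 6 terminalia markers was between 2378 and 2581 CPM at 28 hr APF and between 2072 and 2258 CPM at 24 hr APF, lowest in that replicate 3. All 7 neuron markers rose, against 15.6% of all tested genes, with sums between 171 and 228 CPM at 28 hr APF and between 137 and 159.5 CPM at 24 hr APF. None of the 8 salivary glue genes, 8 testis markers and 6 midgut protease genes had a mean of 1 CPM or more. The testis sum was between 0.325 and 9.73 CPM at 28 hr APF and between 0.503 and 1.34 CPM at 24 hr APF, and no sum of the glue or midgut genes was above 1.34 CPM. What part these tissues have in the values of the 10 genes was not tested.

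Among 7383 genes with a mean of at least 10 CPM, the 5 whose deviations were most like the mean of the tested hexamerins, Lsp1gamma and Lsp2, were CG6409, fok, CG31717, CG31715 and mRpS24, with r between 0.895 and 0.974 over the 8 libraries. Lsp1gamma and Lsp2 themselves had an r of 0.171. Their values were standardized over all 8 libraries, with the difference between the ages included, before the mean was taken. The deviations of Lsp1gamma within an age thus weighed less than those of Lsp2, and the mean lies nearer to Lsp2. With Lsp2 alone, a target chosen after the values were seen, the most similar were CAH7, CG10365, CG14687, CG4250 and fok, with r between 0.917 and 0.974. With so few libraries and so many genes, values of this size arise by selection, and they are given as a description only.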

How the data were processed

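RNA-seq counts of 8 libraries, 4 at 28 hr APF and 4 at 24 hr APF, were used. Per the study's methods, the authors aligned reads of poly-A libraries to dm3 with TopHat2 2.0.13, counted them with bedtools in the unioned exons of FlyBase genes and deposited raw counts. Strand, reads with several alignments and overlapping genes are not described in the sources used here, and they could change counts of paralogs and antisense pairs. Symbols, exon lengths and coordinates came from Ensembl's BDGP6 annotation, another build, matched by gene ID only. Lengths were found for 16431 of 16845 genes, and 118 of 123 listed genes were in the table.

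CPM and rpkm used total counts. Time points were compared with edgeR 4.0.16 in R 4.3.3 (quasi-likelihood test, TMM factors, genes kept by filterByExpr at a minimum of 10 counts, Benjamini-Hochberg adjustment over all tested genes), and the fit was tested on simulated data. Standard errors were obtained from the log2 fold change and its F statistic. Deviations used log2 CPM with a prior count of 2. Sums were compared by exact permutation. Every pair of libraries of 1 age differed beyond sampling noise (chi-square over its degrees of freedom at least 7.36). Alternatives were other normalizations, DESeq2 1.42.0, a block for the replicate number, no filter, a test against a fold change of 1.5, leaving out libraries, and other lengths, library sizes and units of shares. The 10 genes and the lists were chosen with earlier results of these data known. Named besides the 10 genes are, of each pathway list, the 3 most abundant at 28 hr APF and the 2 largest changes past the threshold, and the 5 most similar profiles. Marker lists are given as sums and counts. Other named genes were chosen after their values were seen.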

Additional observations from a re-analysis of the deposited data

Results flagged for a closer look

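In 58 groups of 4 libraries examined (each gene, gene sum and list at each age), 1 library stood apart from the other 3 in 4 groups, where chance alone gives about 2.9. At 24 hr APF, replicate 3 was highest for Lsp2 (88.2 CPM, against 5.46 to 19.6 CPM in the others), and replicate 1 was the only library with a read on Lsp1alpha (0.031 CPM, which is 1 count). At 28 hr APF, replicate 2 was lowest for Fbp1 (0.984 CPM, against 3.95 to 4.43 CPM) and for the summed hemocyte markers (106.5 CPM, against 113 to 114 CPM).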

How the results depend on the processing

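Lsp1gamma passed the threshold, lower at 28 hr APF, under every alternative run. The number of the 10 genes past the threshold was 1 under each, except 2 without replicate 3 at 24 hr APF, when Lsp2 passed too, and it ranged from 1 to 2 with single libraries left out in turn. Over all genes, 531 passed when tested against a fold change of 1.5, against 3692 without it. Log2 fold changes changed sign for Lsp2, Fbp2 and apolpp, none of which passed the threshold in the fit of all 8 libraries. With single libraries left out, Lsp2 ranged from -0.273 to 1.44, Fbp2 from -0.759 to 0.411 and apolpp from -0.425 to 0.832. With replicates 2 and 3 at 24 hr APF both left out, which was added after seeing the data, Fbp2 had 0.183 and apolpp 0.579. Libraries of the same replicate number showed no sign of pairing (correlations of same-numbered deviations -0.16, 0.16, -0.22 and 0.14, and no library at 28 hr APF correlated best with its own number). The labels state no pairing, and these correlations cannot exclude that same-numbered libraries were handled together. With the replicate number as a block, Lsp2 had 0.778, Fbp1 0.672, apolpp 0.236, Lsp1gamma -1.71 and the number of called genes was 1, so no call of the 10 genes changed. The difference of the summed CPM of the 10 genes ranged from -37.1 to 4.54 across the sets without 1 library, and was 0.113 without Lsp1gamma. That of the hexamerins ranged from -32.8 to -3.09, and without Lsp2 it was -23.2 (two-sided exact permutation p = 0.0286, the smallest that 70 splits allow), because Lsp1gamma then makes up nearly all of it. All 40 recomputed levels in rpkm moved by less than 1 SD, and 7 of 20 shares moved by more when computed from rpkm. Depth limits Lsp1alpha, Lsp1beta, Yp1 and Yp2, whose differences were not detectable here.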
